A study of Mus musculus with 32 samples.

Results

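The cytosolic ribosomal protein genes other than Rps6 were followed in mouse livers in which Rps6, itself a small-subunit gene, had been deleted and in livers that had kept it. Members were the genes whose symbol follows the naming pattern of the small subunit (Rps, Rpsa) or the large subunit (Rpl, Rplp) and that had a probe set annotated to that gene alone. Where a gene had several such probe sets, the one with the highest mean over the arrays was used. This gave 35 genes, 18 of the small and 17 of the large subunit, out of 8251 genes with a single-gene probe set. Another 38 probe sets named a ribosomal protein gene together with other loci and were kept apart. No single-gene probe set was named for Rpl3, Rpl5, Rpl11, Rpl23 or Rpl22l1, which are not analysed here.

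The 32 liver samples, called livers below, came from male C57BL/6 mice, 3 months old, all homozygous for a floxed Rps6 allele, and the total RNA of each was hybridised to 1 Affymetrix expression array. Cre plus livers came from mice that also carried Mx-Cre, a recombinase under an interferon-responsive promoter, switched on by injected polyinosinic-polycytidylic acid. Cre minus livers came from floxed mice without the transgene. The sources used here do not say whether the Cre minus mice were injected or how long the injection preceded surgery, and they name no sham-operated livers. There were 4, 4, 3 and 5 Cre plus livers at 0, 20, 30 and 40 h after partial hepatectomy, and 4 Cre minus livers at each of these times. The labels do not state that each liver sample of a group came from a different mouse, so a p-value covers the spread between samples, which may in part be technical. Mx-Cre is known to act in blood-forming cells and macrophages as well as in hepatocytes, so the deletion is not confined to one cell type of the liver.

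Ribosomal proteins and ribosomal RNA form the small (40S) and large (60S) subunits, which are assembled along separate routes that begin in the nucleolus. Loss of a small-subunit protein blocks 40S production, while 60S production can continue. Most ribosomal protein mRNAs begin with a run of pyrimidines, the 5′ TOP motif, through which growth signals control their translation, and unassembled ribosomal proteins can bind MDM2, the ubiquitin ligase of p53. Partial hepatectomy removes most of the liver, and the remaining cells enlarge and then divide.

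Short stretches around the annotated transcription starts of 7 members are shown because ribosomal protein mRNAs are known for the pyrimidine run at their 5′ end. Each is 30 bases on the transcript strand, 15 before and 15 from the RefSeq start onwards (GRCm38.p6; first listed start of a gene), and capitals mark runs of at least 6 bases that are C or T.
Rps10: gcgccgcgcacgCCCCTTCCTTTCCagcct
Rps27: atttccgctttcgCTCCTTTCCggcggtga
Rps27l: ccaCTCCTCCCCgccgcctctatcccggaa
Rpl10a: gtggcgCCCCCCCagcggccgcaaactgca
Rps19: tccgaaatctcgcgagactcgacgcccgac
Rpsa: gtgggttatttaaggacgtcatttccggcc
Rplp0: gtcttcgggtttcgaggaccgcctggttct

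These windows lie at chr17:27635230-27635259 (minus strand) for Rps10, chr3:90213634-90213663 (minus strand) for Rps27, chr9:66946071-66946100 (plus strand) for Rps27l and chr17:28328456-28328485 (plus strand) for Rpl10a. Those of Rps19, Rpsa and Rplp0 lie on the plus strand at chr7:24884577-24884606, chr9:120127751-120127780 and chr5:115559452-115559481. In Rps10 and Rps27 the run spans the annotated start, at positions −3 to 10 and −2 to 7, and in Rps27l and Rpl10a it ends before it. Of the 28 members with a promoter entry, 12 held such a run in the window (42.9%), against 29.1% of 27025 genes in the promoter table. By subunit it was 5 of 14 small-subunit and 7 of 14 large-subunit members. Runs of at least 6 purines, which are pyrimidine runs on the other strand, stood in 7.14% of the members' windows and in 32.1% of all windows. Annotated starts can lie some bases away from the starts used in liver.

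The deposited values are log2 signals, and a level is given only within a gene, since probe sets differ in their response. Testing required a value over the 30th percentile of the array, on 3 arrays or more, and 31 of the 35 members met this, 15 of the small and 16 of the large subunit. Rps14, Rps15, Rps20 and Rpl39 did not, with means of 4.48, 3.77, 4.22 and 4.32 over the 32 arrays, and are described no further. The 31 were fitted with all 9249 tested probe sets in limma, with the 8 groups and the 2 labelled batches (PHX2 and PHX3) as terms, and a gene was called at a Benjamini-Hochberg adjusted p under 0.05 over all of them. Of the tested members, 19 had a mean of at least 9 and 12 lay below it. The probe sets used for Rps24 and for Rpl7 each share their source accession with a probe set of the other gene, so their identity and subunit are uncertain. Rps4l is a near-copy of Rps4x, so its identity is uncertain too.

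The deleted gene checks the labels. Rps6 had values of 6.24 to 7.69 in the 16 Cre plus livers, against 10.99 to 11.82 in the 16 Cre minus livers, with no overlap. The difference was −4.30, −4.34, −4.55 and −4.10 at 0, 20, 30 and 40 h, or 19.8-, 20.2-, 23.4- and 17.2-fold lower in Cre plus livers. Its probe set also names the pseudogene Rps6-ps4.

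On 3 arrays values correlated below 0.95 with the other arrays of their group: Cre plus 30 h A, Cre plus 40 h D and Cre minus 30 h C. Counts that rest on them are given with and without them. Of 9 markers of Kupffer cells and macrophages, 0, 5, 2 and 6 fell in Cre plus livers at 0, 20, 30 and 40 h, and their mean log2 level ranged from 6.70 to 7.91 in Cre plus and from 7.50 to 8.30 in Cre minus livers. Of 3 erythroid markers, 0, 2, 0 and 2 fell at these times, and their mean level ranged from 6.64 to 8.48 in Cre plus and from 7.70 to 10.43 in Cre minus livers; whether either cell population bears on the ribosomal protein values was not tested. Over all probe sets, 0.0216%, 0.238%, 0.151% and 3.07% fell between genotypes at 0, 20, 30 and 40 h. In bulk liver, fewer cells of a type and less RNA per cell cannot be told apart. Batch also moved the members: 11 of 31 differed between PHX3 and PHX2, from −0.25 in Rpl32 to 0.42 in Rpl13a, and 2494 of the 9249 probe sets did so. In PHX3 the Cre plus 30 h group held liver A alone, and in PHX2 the Cre minus 40 h group held liver D alone. Within-batch values for these groups therefore rest on a single liver on that side.

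Between genotypes, no member was called at 0, 20 or 30 h, where 0.0649%, 0.292% and 0.281% of all tested probe sets were called in either direction by limma, and 2, 2 and 2 members had an unadjusted p under 0.05. The median difference over the 31 members was 0.10, 0.00 and 0.01, against 0.00 at each of these times over all probe sets. The 95% intervals, each for 1 gene and not adjusted for the number of genes, show what size of difference could have been missed. They lay within 1 log2 unit of 0 for 31, 30 and 30 of the 31 members, and the exception at 20 and 30 h was Rps4l. For the 19 members with a mean of at least 9, the furthest limits were −0.56 (Rpl10a at 30 h) and 0.57 (Rps19 at 0 h), so each of these 19 intervals stayed within 1 log2 unit. That unit is wider than every change called among the members here, so differences as small as those are not excluded by it.

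**Figure D1:**
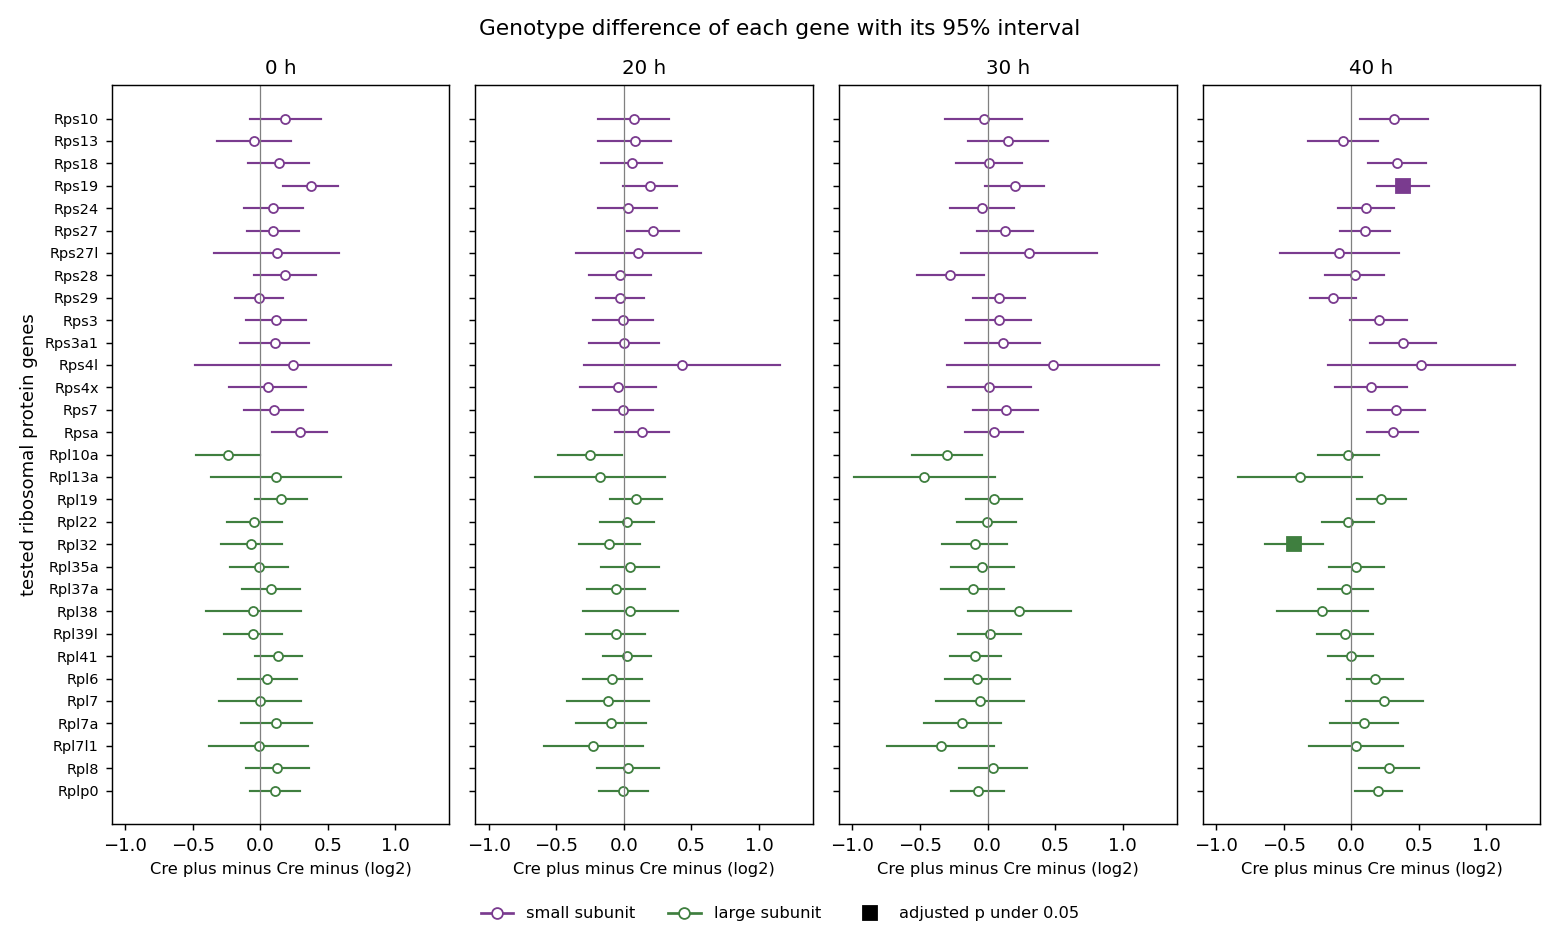
Difference between Cre plus and Cre minus livers (log2, horizontal axis) of each of the 31 tested genes at 0, 20, 30 and 40 h, with 95% intervals; small-subunit genes stand above large-subunit genes, and filled squares are called at an adjusted p under 0.05. At 40 h Rps19 lies at 0.38 and Rpl32 at −0.43, and no gene is called at the other times.

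At 40 h, 2 members were called, 1 in each direction. Rps19, a protein of the 40S head whose gene is mutated in Diamond-Blackfan anaemia in humans, rose by 0.38 (SE 0.09, 1.30-fold, adjusted p = 0.013). Rpl32, a large-subunit protein, fell by 0.43 (SE 0.10, adjusted p = 0.0132). Over all probe sets, 2.28% rose and 3.07% fell at this time, so 1 of 31 members in each direction is close to the background share. A further 8 members had an unadjusted p under 0.05 without being called, all of them higher in Cre plus livers. They were Rps3a1 (0.38, adjusted p = 0.058), Rps18 (0.34, 0.0586), Rps7 (0.33, 0.0548), Rps10 (0.32, 0.148) and Rpsa (0.31, 0.0513) of the small subunit, and Rpl8 (0.28, 0.146), Rpl19 (0.22, 0.167) and Rplp0 (0.20, 0.205) of the large subunit.

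Rps19 stood higher in Cre plus livers before surgery as well. At 0 h it had 9.48, 9.71, 9.40 and 9.51 in Cre plus livers A to D, against 8.99, 9.18, 9.21 and 9.21 in Cre minus livers A to D. The groups did not overlap, the difference was 0.37 (SE 0.10), and it was not called over all probe sets (adjusted p = 0.435). How many of all probe sets likewise show no overlap is not given here. The separation of a single member, here and for Rpsa and Rpl32 below, is therefore a description. At 40 h the values were 9.87, 9.93, 9.95, 9.58 and 9.90 in Cre plus livers A to E, against 9.42, 9.70, 9.30 and 9.48 in Cre minus livers A to D. Here Cre plus liver D lay below Cre minus liver B, and the other Cre plus livers lay above every Cre minus liver. At 20 and 30 h the difference was 0.19 and 0.20, and neither was called. Before surgery it was 0.26 within batch PHX2 and 0.49 within batch PHX3, and at 40 h these values were 0.26 and 0.44. The PHX2 value at 40 h rests on liver D alone in the Cre minus group. The call at 40 h was lost on leaving out Cre minus 40 h liver C (adjusted p = 0.0753) and in 2 of the 9 omissions in all, within PHX2 alone, and in a fit to the 40 h livers alone.

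Rpsa, a small-subunit protein also known as the laminin receptor, lay close to Rps19 in pattern but was not called between genotypes. It had 9.51, 9.66, 9.52 and 9.57 in Cre plus livers at 0 h, against 9.23, 9.27, 9.23 and 9.38 in Cre minus livers, without overlap (difference 0.29, adjusted p = 1). At 40 h it had 9.91, 9.77, 10.06, 9.57 and 9.97 in Cre plus livers, against 9.38, 9.62, 9.45 and 9.75 in Cre minus livers. There Cre plus liver D lay within the Cre minus range, and the difference was 0.03 within PHX2 and 0.43 within PHX3. In PHX2 the Cre minus group was liver D alone.

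Rpl32 ran the other way at 40 h. It had 6.15, 6.11, 6.05, 6.27 and 6.11 in Cre plus livers, against 6.55, 6.38, 6.51 and 6.66 in Cre minus livers, and the groups did not overlap. The difference was −0.07, −0.11 and −0.10 at 0, 20 and 30 h, within the spread of the livers. The probe set lies near the array medians of 5.88 to 5.99, differs by −0.25 between PHX3 and PHX2, and lost its call at 40 h on leaving out Cre minus liver A (adjusted p = 0.0567), without the batch term, with the replicate block and within either batch alone. At 40 h its difference was −0.47 within PHX2, where Cre minus liver D stood alone in its group, and −0.38 within PHX3.

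**Figure D2:**
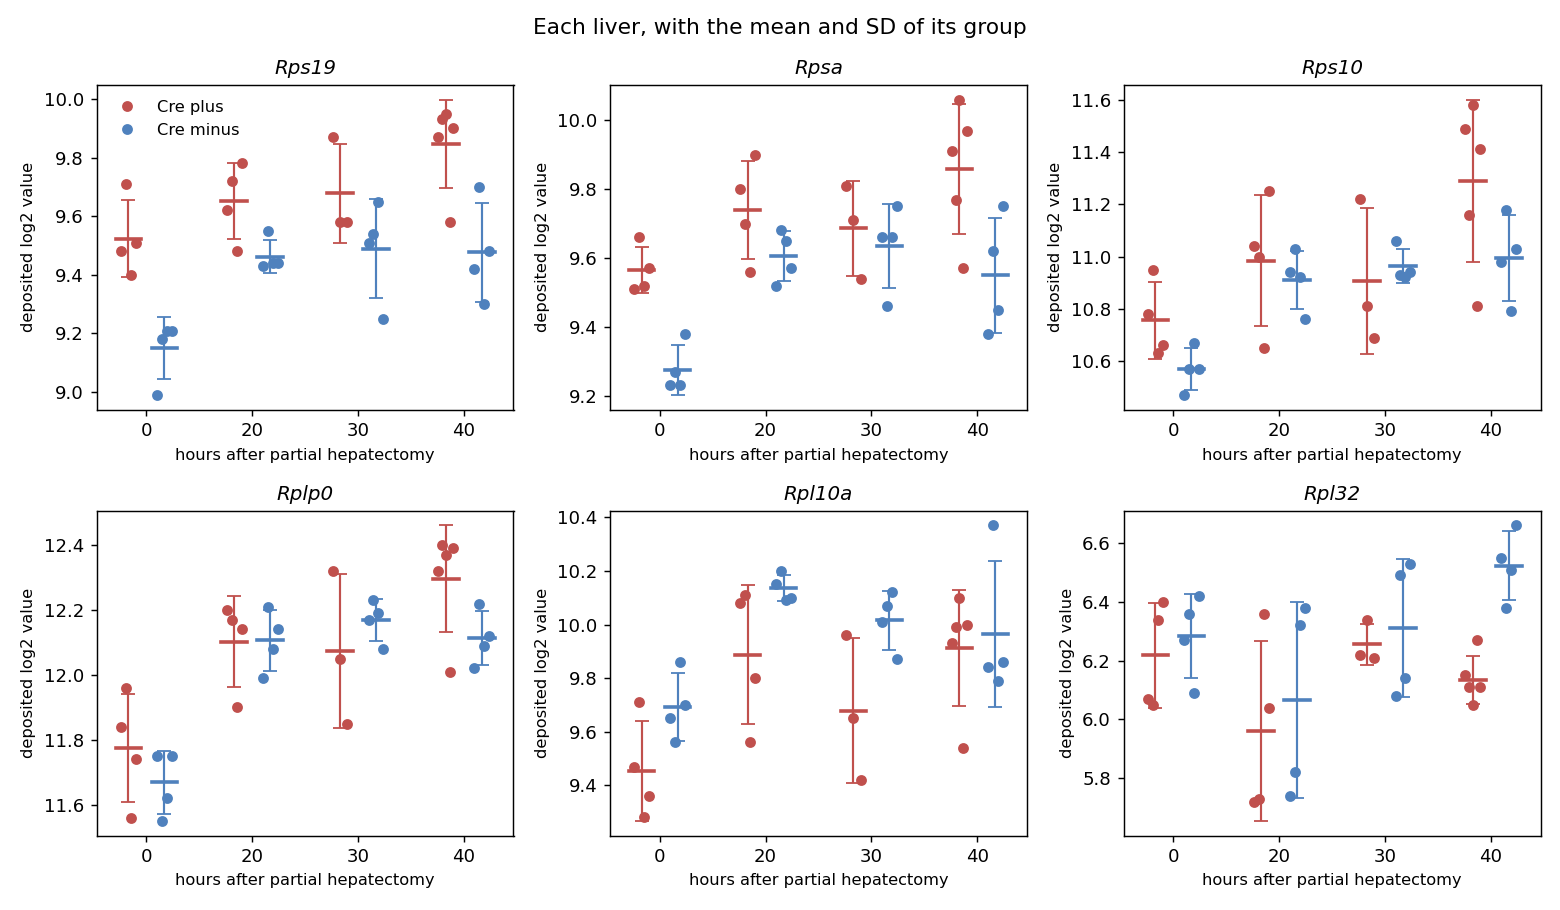
Deposited log2 value (vertical axis) of 6 genes in each liver by hours after partial hepatectomy, Cre plus in red and Cre minus in blue; horizontal bars are group means and whiskers are 1 SD (n = 3 to 5). Rps19 and Rpsa lie higher in Cre plus livers at 0 h without overlap, and neither is called there. Rplp0 has its lowest mean at 0 h in both genotypes, and Rpl32 separates the genotypes at 40 h.

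The 2 subunits were then set side by side, since the deleted gene encodes a small-subunit protein. The median genotype difference over the 15 small-subunit members was 0.12, 0.06, 0.09 and 0.20 at 0, 20, 30 and 40 h, against 0.03, −0.06, −0.08 and 0.02 over the 16 large-subunit members. The gap between the medians was 0.09, 0.12, 0.16 and 0.19, and it is a description with no test, since members are not replicates. At 20 h it was 0.0332 without Cre plus liver D and 0.0429 without Cre minus liver A, and at 40 h it was 0.1138 without Cre minus liver C and 0.2834 without Cre minus liver D. Of the 15 small-subunit members, 13, 10, 12 and 12 had a positive difference at these times, and of the 16 large-subunit members, 9, 6, 4 and 8. Among the 10 small and 9 large members with a mean of at least 9, the medians were 0.13, 0.02, 0.03 and 0.31 for the small subunit, against 0.11, −0.06, −0.08 and 0.17 for the large, so the gap at 0 h was 0.02 there.

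The same values were also summarised array by array, which is not a second observation. Each member was set relative to its own mean over the 32 arrays, and the median over a subunit's tested members was taken in each liver. The small-subunit median minus the large-subunit median ranged from 0.01 to 0.08, 0.06 to 0.11, 0.06 to 0.17 and 0.04 to 0.12 in Cre plus livers at 0, 20, 30 and 40 h. In Cre minus livers it ranged from −0.11 to 0.00, −0.18 to −0.02, −0.13 to 0.08 and −0.21 to −0.06. The genotypes did not overlap at 0, 20 and 40 h, and at 30 h Cre minus liver C (0.08), which correlated below 0.95 with its group, lay among the Cre plus livers. The pooled SD of this quantity within groups was 0.06. The genotype difference in its means was 0.10, 0.12, 0.07 and 0.22 within PHX2 and 0.14, 0.21, 0.30 and 0.17 within PHX3. The 30 h value within PHX3 rests on liver A alone in the Cre plus group. The 40 h value within PHX2 rests on liver D alone in the Cre minus group. With means in place of medians the genotypes again did not overlap at 0, 20 and 40 h. With the 19 members at a mean of at least 9 they overlapped at every time, with differences of 0.09, 0.10, 0.08 and 0.14, and with medians of levels that were not centred they also overlapped at every time.

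**Figure D3:**
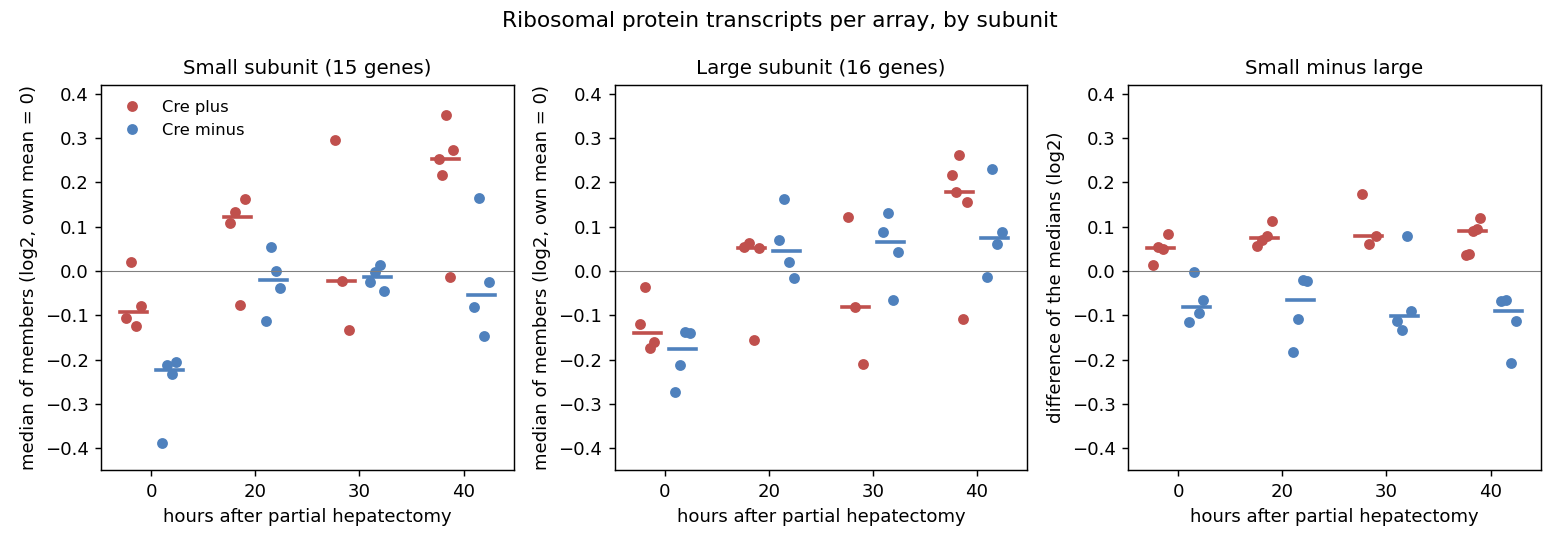
Median over the tested small-subunit members (left), over the large-subunit members (middle) and their difference (right) in each liver, in log2 units relative to each gene's own mean, by hours after partial hepatectomy; Cre plus in red, Cre minus in blue, bars are group medians. The difference is positive in all 16 Cre plus livers and negative in 15 of 16 Cre minus livers, the exception being Cre minus 30 h liver C. Each gene's mean was taken over both genotypes, so opposite signs are in large part set by the centring. Without the centring the difference was positive in every liver, from 0.29 to 0.84, and the genotypes overlapped at each time.

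Taken singly, the small-subunit median set the genotypes apart at 0 h. The small-subunit median ranged from −0.12 to 0.02 in Cre plus livers and from −0.39 to −0.21 in Cre minus livers, without overlap. The large-subunit median ranged from −0.17 to −0.04 in Cre plus livers and from −0.27 to −0.14 in Cre minus livers, with overlap. At 40 h both overlapped: the small subunit ranged from −0.01 to 0.35 in Cre plus livers and from −0.15 to 0.16 in Cre minus livers. Cre plus liver D was the lowest of its group for both subunits.

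After partial hepatectomy the called members all rose, in both genotypes. In Cre plus livers 2, 1 and 10 members rose at 20, 30 and 40 h against 0 h and none fell, where 3.55%, 3.56% and 3.59% of all probe sets rose and 5.52%, 6.34% and 6.07% fell. There the 1 of 31 at 30 h is close to the share that rose, and the 2 of 31 at 20 h are little above it. The 10 of 31 at 40 h are well above it. In Cre minus livers 7, 3 and 3 rose and none fell, where 3.33%, 1.01% and 2.32% of all probe sets rose and 4.04%, 2.13% and 2.44% fell. The comparisons within a genotype share its 0 h livers. Over the 6 comparisons there were 11 calls of small-subunit and 15 of large-subunit members. The changes were small: the called members rose by 0.29 to 0.52, or 1.23- to 1.43-fold. The median change over the 31 members was 0.13, 0.14 and 0.29 in Cre plus livers and 0.27, 0.24 and 0.21 in Cre minus livers, against −0.02, 0.00 and 0.01 and against −0.03, −0.01 and 0.00 over all probe sets. Of the 19 members with a mean of at least 9, 18, 18 and 19 had a positive change in Cre plus livers and 19 at each time in Cre minus livers. The 12 below that mean had medians of −0.04 to 0.12. The level limit was set after seeing the data, and members are not replicates. The share of positive changes over all probe sets is not given here.

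Other measures moved in the same comparisons. The log2 3′ minus 5′ difference of the beta-actin control, a sign of RNA quality, was 0.86 to 1.01 at 20 h and 0.81 to 0.88 at 30 h in Cre plus livers, against 1.03 to 1.09 in Cre plus livers at 0 h, without overlap, and at 40 h it was 0.85 to 1.25, with overlap. In Cre minus livers it overlapped with 0 h at each time. The same difference of the Gapdh control was 0.29 to 0.40 in Cre plus livers at 0 h. It was 0.03 to 0.36, 0.22 to 0.31 and 0.15 to 0.35 at 20, 30 and 40 h, with overlap at each time. In Cre minus livers the Gapdh difference also overlapped with 0 h at each time. Of the 9 Kupffer cell and macrophage markers, 5, 1 and 5 fell at 20, 30 and 40 h in Cre plus livers and none was called in Cre minus livers, where 2 of the 3 erythroid markers rose at 40 h. Their part in the changes of the ribosomal protein transcripts was not tested.

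**Figure D4:**
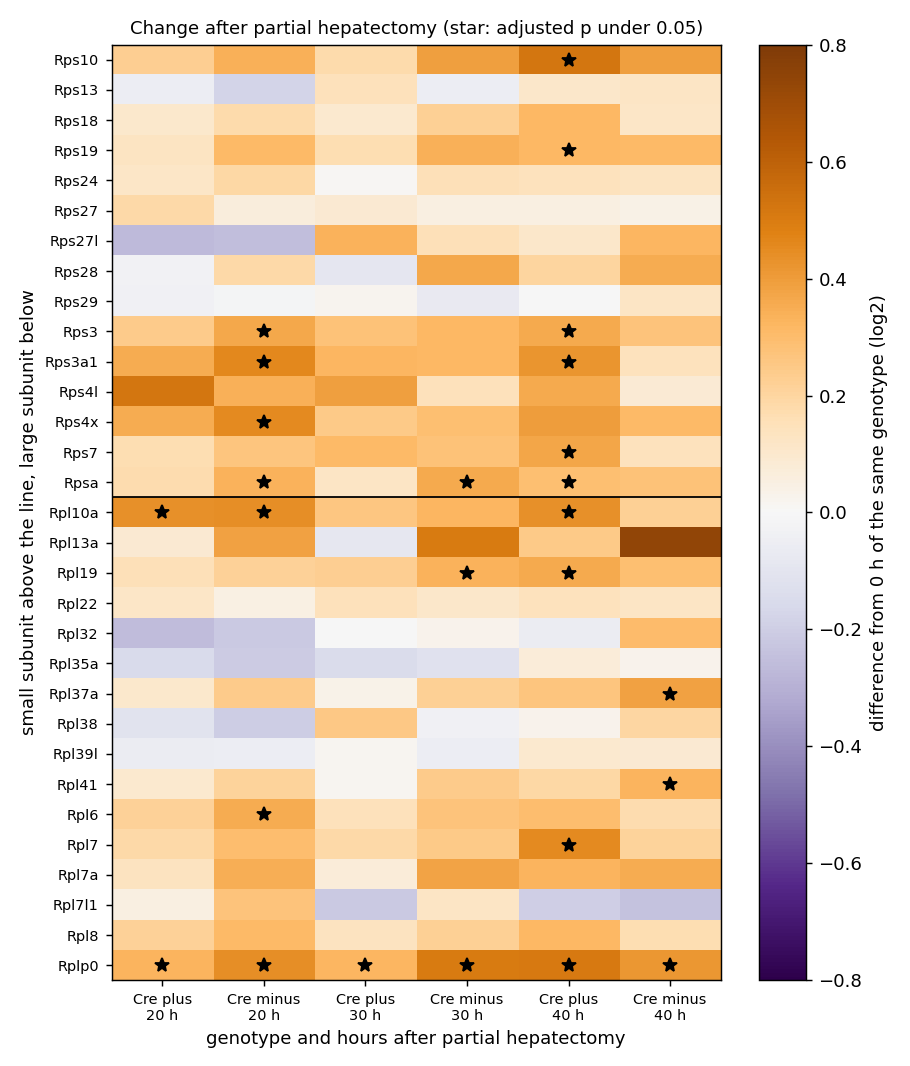
Change from 0 h of the same genotype (log2, colour) of the 31 tested genes in rows, small subunit above the line, at 20, 30 and 40 h in Cre plus and Cre minus livers; stars mark an adjusted p under 0.05. Rplp0 carries a star in all 6 columns, and no gene below 0 carries one.

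Rplp0, the base of the 60S stalk that recruits elongation factors, was the member called in all 6 of these comparisons. In Cre plus livers its values at 0 h were 11.84, 11.96, 11.56 and 11.74. At 20 h these livers had 12.20, 12.17, 11.90 and 12.14, at 30 h they had 12.32, 12.05 and 11.85, and at 40 h they had 12.32, 12.40, 12.37, 12.01 and 12.39. In Cre minus livers the values were 11.75, 11.55, 11.62 and 11.75 at 0 h, with 11.99, 12.21, 12.08 and 12.14 by 20 h, 12.17, 12.23, 12.19 and 12.08 by 30 h, and 12.02, 12.22, 12.09 and 12.12 by 40 h. Every later Cre minus liver lay above every Cre minus liver at 0 h, whereas in Cre plus livers this held at 40 h and the groups overlapped at 20 and 30 h. It rose by 0.33, 0.32 and 0.51 in Cre plus livers (adjusted p = 0.0217, 0.0359 and 0.000546) and by 0.44, 0.50 and 0.41 in Cre minus livers (adjusted p = 0.00444, 0.00261 and 0.00515). Its calls at 40 h in Cre plus livers and at each time in Cre minus livers held on leaving out any single liver. In Cre plus livers the call at 20 h was lost in 4 of 8 omissions and that at 30 h in 5 of 7, with an adjusted p of up to 0.218 without Cre plus 30 h liver A.

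Rpl10a, the protein of the L1 stalk of the 60S subunit, followed at 20 h in both genotypes. It rose by 0.43 at 20 h in Cre plus livers and by 0.44 in Cre minus livers (adjusted p = 0.0189 and 0.0193), and by 0.44 at 40 h in Cre plus livers (adjusted p = 0.0126). With the mean over its probe sets, the call in Cre minus livers was lost and those in Cre plus livers held. Its values at 0 h were 9.47, 9.71, 9.28 and 9.36 in Cre plus livers, against 9.65, 9.56, 9.86 and 9.70 in Cre minus livers. The difference between genotypes was −0.24, −0.25, −0.30 and −0.02 at 0, 20, 30 and 40 h, so it was the member furthest below 0 at 0 and 20 h, and it was not called at any time (adjusted p of 0.344 or above).

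Apart from Rplp0 and Rpl10a, which account for 9 of the 15 large-subunit calls, the calls were spread over both subunits. At 40 h in Cre plus livers Rps10, a protein of the 40S head, had the largest rise of the members called, 0.52 (SE 0.12, adjusted p = 0.00775), and its call held on leaving out any single liver. It was not called in a fit to the Cre plus 0 and 40 h livers alone (adjusted p = 0.0821), where Rplp0 was the 1 member called, nor within PHX2 (0.346) or PHX3 (0.0529) alone, and it was called with the replicate block, which left 3 of the 10 (Rps10, Rpl19 and Rplp0). Its values at 40 h were 11.49, 11.16, 11.58, 10.81 and 11.41, against 10.78, 10.95, 10.63 and 10.66 at 0 h, and liver D was the one that lay within the 0 h range. Rps3, Rps3a1, Rps7, Rps19 and Rpsa rose by 0.36, 0.42, 0.37, 0.32 and 0.29 in the same comparison. In Cre minus livers Rps3, Rps3a1, Rps4x and Rpsa rose by 0.37, 0.46, 0.45 and 0.33 at 20 h, Rpsa by 0.36 at 30 h, and no small-subunit member was called at 40 h, when 13 of the 31 members had an unadjusted p under 0.05. For Rps4x the mean over its 5 probe sets gave −0.0007 in place of 0.45 at 20 h. With the mean over all probe sets of every gene, the median small-subunit change at 20 h in Cre minus livers was 0.07 in place of 0.27. At 40 h in Cre plus livers it was 0.18 in place of 0.32. The large-subunit medians in these comparisons were 0.24 in place of 0.25 and 0.25 in place of 0.26.

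Of the 60S proteins, Rpl19, at the rim of the exit tunnel of the peptide, rose by 0.36 at 40 h in Cre plus livers and by 0.33 at 30 h in Cre minus livers. Neither of these rises was called with the mean over the probe sets of Rpl19. Rpl7, whose probe set is of uncertain identity, rose by 0.45 at 40 h in Cre plus livers. Rpl6 rose by 0.36 at 20 h in Cre minus livers, and Rpl37a and Rpl41 by 0.38 and 0.33 at 40 h in Cre minus livers. Rpl13a had the furthest change of all members, 0.74 at 40 h in Cre minus livers, but was not called (adjusted p = 0.0691), and it was 0.42 higher in PHX3 than in PHX2.

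Many of these calls rest on few livers. Without Cre minus 0 h liver A, Rplp0 alone stayed called at 20 h in Cre minus livers, and the other members called there lost their call in 4 to 8 of 8 omissions. Without the 3 arrays that correlated below 0.95, 3, 0 and 18 members were called in Cre plus livers at 20, 30 and 40 h and 11, 5 and 10 in Cre minus livers, each of them higher. Over all probe sets, 6.16%, 5.58% and 4.64% then rose in Cre plus livers and 5.65%, 1.02% and 3.06% in Cre minus livers, while 8.26%, 8.4% and 6.29% fell in Cre plus and 5.52%, 2.13% and 3.78% in Cre minus livers. Between genotypes, 0, 0, 1 and 9 members were then called at 0, 20, 30 and 40 h. The 9 at 40 h were Rps3a1, Rps7, Rps10, Rps18, Rps19 and Rpsa of the small subunit and Rpl8 and Rpl19 of the large, all higher in Cre plus livers, and Rpl32, which was lower, while 3.8% of all probe sets rose and 3.36% fell. The member called at 30 h was Rps28, lower in Cre plus livers, where 5.72% of all probe sets fell and 4.55% rose, so 1 of 31 is below the background share.

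Whether the change after surgery differed between genotypes was tested as an interaction. No member was called at 20, 30 or 40 h, where limma called 0%, 0.0108% and 0.584% of all probe sets, and 0, 1 and 1 members had an unadjusted p under 0.05. These were Rps28 at 30 h (−0.46, 95% interval −0.79 to −0.12) and Rpl32 at 40 h (−0.36, 95% interval −0.67 to −0.05). The median interaction was −0.10, −0.06 and 0.02. The difference between genotypes in the number of members called after surgery was thus not itself called for any member.

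The members known to bind MDM2 and paralogs of canonical members were looked at by name. Of the MDM2 binders, Rps3, Rps7, Rps27 and Rps27l were tested, and none was called between genotypes at any time. Their median difference was 0.11, 0.05, 0.13 and 0.15 at 0, 20, 30 and 40 h, and Rps3 and Rps7 were the ones called at 40 h against 0 h in Cre plus livers. Rps27l, a paralog of Rps27 and a p53 target in human cells, differed by 0.12, 0.11, 0.31 and −0.09 between genotypes, with a standard error of 0.21 to 0.24. Its livers were widely spread at 30 h, with 8.25, 7.52 and 7.51 in Cre plus livers against 7.15, 8.25, 7.29 and 7.28 in Cre minus livers. Of 6 other p53 targets tested, 1, 1, 2 and 4 rose at 0, 20, 30 and 40 h, where 0.0432%, 0.0541%, 0.13% and 2.28% of all probe sets rose. Rpl22, whose paralog Rpl22l1 is not analysed here, differed by −0.04, 0.02, −0.01 and −0.02. The paralogs Rpl7l1 and Rpl39l were called in no comparison, nor was Rps4l, whose identity is uncertain. Rps4l had genotype differences of 0.25, 0.43, 0.48 and 0.52, the furthest above 0 of the members at 20, 30 and 40 h, with standard errors of 0.34 to 0.38. At 20 h it had 7.94, 8.68, 7.80 and 8.03 in Cre plus livers, against 7.49, 6.60, 8.25 and 8.40 in Cre minus livers, and the difference was −0.41 within PHX2 and 1.27 within PHX3.

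Transcripts next to the members in function were set beside them from lists chosen with earlier results known. Over all probe sets, 2.28% rose and 3.07% fell between genotypes at 40 h. The 35 tested probe sets that name a ribosomal protein gene with other loci had median genotype differences of 0.09, 0.00, −0.01 and 0.14, and 5 of them rose at 40 h. Of these 35, 2, 2 and 10 rose in Cre plus and 11, 4 and 1 in Cre minus livers at 20, 30 and 40 h. Over all probe sets 3.55%, 3.56% and 3.59% rose in Cre plus and 3.33%, 1.01% and 2.32% in Cre minus livers. The 2 at 20 and at 30 h in Cre plus livers and the 1 at 40 h in Cre minus livers are thus near the background share. The 1 that fell between genotypes at each time names Gm15421, Rpl22l1 and Orc5, so the locus it measures is not settled. Of 13 other mRNAs with a 5′ TOP, 3 rose between genotypes at 40 h, with a median of 0.12 over the list. Of 17 ribosome biogenesis factors 5 rose at 40 h, with a median of 0.45. Of 59 mitochondrial ribosomal proteins 1 rose and 1 fell at 40 h, with a median of 0.00, so neither count is above the background share.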

How the data were processed

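The deposited log2 signals of the series table were used as they stand. The authors made them with RMA, per the submitters' processing notes. Its version was not given in the sources used here, nor was whether the batches shared 1 normalization. Groups, times, replicate letters and batches came from the labels. Of 12422 probe sets other than 66 controls, 10833 name 1 gene, 396 several and 1193 none here. limma 3.58.1 (R 4.3.3) was fitted to 9249 probe sets (above the array's 30th percentile on at least 3 of 32 arrays) with group and batch as terms, and p-values were adjusted within each of 13 comparisons. The fit was tested on simulated data. The number of arrays limits the precision; intervals are at 95%.

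Members named in a comparison were a fixed core (Rps3, Rps4x, Rps7, Rps19, Rps20, Rps27, Rps27l, Rpl22 and Rplp0 among those measured), up to 6 called members with the highest and 6 with the lowest difference per subunit, and the 3 furthest from 0 in a subunit with fewer than 3 calls. The members short of the threshold at 40 h, those called without the 3 arrays, and Rpsa, Rpl10a, Rpl13a and Rpl32 where the rule does not pick them, were named after their values were seen. Members and lists were chosen with earlier results of these data known. Medians per array were first taken over uncentred levels, with a pooled SD of 0.15, and were centred on each gene's own mean after those values were seen. The members at a mean of at least 9 were chosen after seeing the data. Alternatives were no batch term, other filters and scalings, array weights, leaving out arrays, a replicate block, each batch alone, the compared groups alone, and the mean over a gene's probe sets.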

Additional observations from a re-analysis of the deposited data

Results flagged for a closer look

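In 17 of 189 checks, 1 liver stood apart from the others of its group of 4 or 5, with a gap to its nearest neighbour that is large for the group's whole range; chance flags about 1 in 20 groups. Cre plus 40 h liver D, which correlated below 0.95 with its group, was the lowest for Rpl19 (11.55, others 11.81 to 11.92), Rpl41 (13.19, others 13.54 to 13.63), Rplp0 (12.01, others 12.32 to 12.40), Rps19 (9.58, others 9.87 to 9.95) and the large-subunit median (−0.11, others 0.15 to 0.26). Cre plus 20 h liver C was the lowest for Rpl19 (11.48, others 11.61 to 11.62), Rpl8 (11.06, others at 11.41) and the large-subunit median (−0.16, others 0.05 to 0.06). Cre plus 0 h liver B was the highest for Rpl41 (13.44, others 13.25 to 13.28).

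Cre minus 0 h liver A was the lowest for Rps19 (8.99, others 9.18 to 9.21) and the small-subunit median (−0.39, others −0.23 to −0.21), and liver B of that group for Rps27l (7.10, others 7.40 to 7.45). Liver B was the highest for Rps19 in Cre minus 20 h (9.55, others 9.43 to 9.44), for Rps27l in Cre minus 30 h (8.25, others 7.15 to 7.29), and for Rpl10a (10.37, others 9.79 to 9.86) and Rpl13a (8.24, others 7.41 to 7.49) in Cre minus 40 h. In Cre minus 40 h, liver D was the highest for Rpl7l1 (5.88, others 5.45 to 5.52). The cause was not tested.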

How the results depend on the processing

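Members called at 0, 20, 30 and 40 h between genotypes are given as 4 counts below, and after surgery as 3. Over all counts and gaps, 285 of the recomputed values stayed within 1.5 times the count or within 1 SD of the gap, and 96 did not. A count of 0 that stayed 0 is among the 285. The main fit called no member between genotypes at 0, 20 and 30 h or in any interaction. The tally therefore does not measure how stable the counts above 0 were. Without a batch term, 1 was called between genotypes at 40 h, 1 and 0 in Cre plus livers at 20 and 30 h, and 4 in Cre minus livers at 20 h. Of all probe sets, 1.72% rose and 2.74% fell in that genotype comparison. In the same fit 2.7% and 3.01% rose in Cre plus livers at 20 and 30 h, and 2.53% in Cre minus livers at 20 h. With a filter at the array median, 4 were called between genotypes at 40 h, where 3.1% of all probe sets rose and 3.38% fell. Quantile normalization gave 4 and 0 in Cre plus livers (20 and 30 h) and 5 and 6 in Cre minus livers (30 and 40 h), and a small minus large gap of 0.11 at 40 h. With it, 4.04% and 4.26% of all probe sets rose in these Cre plus comparisons and 1.22% and 2.62% in these Cre minus comparisons. Array weights called 2, 0, 5 and 12 between genotypes, 11, 6 and 19 in Cre plus livers, 14, 13 and 11 in Cre minus livers, and 5 in the interaction at 30 h. With these weights 6.45% of all probe sets were higher and 10.7% lower in that interaction, 10.8% and 15.5% between genotypes at 30 h, 4.87% and 4.44% at 40 h, 12.8% and 15.9%, 16.7% and 22.2%, and 6.44% and 8.41% after surgery in Cre plus livers, and 11.4% and 11.2%, 4.66% and 5.44%, and 10.1% and 11.1% in Cre minus livers, so 5 of 31 at 30 h between genotypes and 6 of 31 at 30 h in Cre plus livers are below the background share of both directions together. Between genotypes the array weights gave 0.303% of all probe sets higher and 0.292% lower at 0 h, and 0.119% and 0.432% at 20 h. The replicate block, whose letters did not pair the livers (mean correlation −0.0342 for the same and 0.00972 for other letters, with 6 of 32 arrays closest to their own letter), called 1 between genotypes at 40 h, 3 in Cre plus livers at 40 h and 1 in Cre minus livers at 30 h. With the block, 1.16% of all probe sets rose and 2.61% fell between genotypes at 40 h. In those Cre plus and Cre minus comparisons 2.68% and 0.887% rose. Within PHX2 alone, 0 were called between genotypes at 40 h and in the 6 changes after surgery, and the gap between subunit medians was 0.0657 at 30 h. Of all probe sets, 0.0108% rose and 0.119% fell there between genotypes at 40 h, and at most 0.303% rose after surgery. Within PHX3 alone, 1 and 1 were called in Cre plus livers at 20 and 40 h, and 1 and 1 in Cre minus livers at 20 and 30 h. The gap there was 0.25 at 30 h, with liver A alone in the Cre plus group. Of all probe sets, 5.54% and 1.21% then rose in these Cre plus comparisons, and 1.62% and 0.422% in these Cre minus comparisons. Fits to the compared groups alone called 1 between genotypes at 40 h, 1 in Cre plus livers at 40 h, and 11, 1 and 8 in Cre minus livers. Of all probe sets, 0.681% rose and 1.43% fell in that genotype comparison. After surgery 1.48% rose in Cre plus livers at 40 h, and 8.5%, 0.519% and 4.04% in Cre minus livers. Among members at a mean of 9 or more (chosen after seeing the data), 1 was called at 40 h and the gap at 0 h was 0.0192. With the mean over its probe sets, Rps4x at 20 h in Cre minus livers turned to −0.0007.

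Leaving out single livers gave 0 calls between genotypes at 0, 20 and 30 h and 0 to 6 at 40 h. It gave 0 to 5, 0 to 2 and 2 to 17 calls in Cre plus livers, 1 to 5, 1 to 2 and 1 to 4 in Cre minus livers and 0 in the interactions, and the gap ranged from 0.0332 to 0.1412 at 20 h and from 0.1138 to 0.2834 at 40 h. The share of all probe sets called is not given for these omissions, so their counts are not set against a background. Without the 3 arrays below 0.95, 1 and 9 were called between genotypes at 30 and 40 h, 0 and 18 in Cre plus livers at these times, 11, 5 and 10 in Cre minus livers and 1 in the interaction at 30 h. In that interaction 0.822% of all probe sets were higher and 1.17% lower. The cause was not tested. Signals near the array median, as for the 12 members below 9, limit what can be seen of them.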
